A study of Mus musculus with 6 samples.

Results

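The insulin-like growth factor (IGF) system was followed in MC-38 tumor cells through 10 genes, which were picked out of the 22880 genes of the deposited table by their symbols. These were the ligands Igf1 and Igf2, the receptor Igf1r, the adaptor Irs2 and the binding proteins Igfbp2, Igfbp3, Igfbp4, Igfbp5, Igfbp6 and Igfbp7. Of the 10 genes, 7 had enough reads to be tested between the groups and 3 (Igf1, Igfbp2 and Igfbp5) did not. None of the 7 passed the test, Igfbp4 was by far the most abundant, and Igf2 had the lowest p-value of the set.

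IGF1 and IGF2 are secreted growth factors that bind the tyrosine kinase IGF1R, which passes the signal through insulin receptor substrates such as IRS2 to PI3 kinase and AKT. Outside the cell, most of the ligand is held by IGF binding proteins, which extend its life, keep it from the receptor or release it when proteases cut them, while IGF2R carries IGF2 to the lysosome for breakdown. Igf2 is an imprinted gene that is active mainly before birth and is often expressed again in tumors, and colorectal cancer is a well-known setting for this.

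MC-38 is a mouse colon adenocarcinoma line, here carrying green fluorescent protein (GFP), and it was grown as an orthotopic tumor in the cecum wall of C57BL/6J mice. Cells of both groups had been transduced with the lentiviral plasmid pLKO.1-puro and had not been passaged in vivo. The HIF-1α-KD cells carried a knockdown of HIF-1α, the oxygen-regulated subunit of the hypoxia-inducible factor, and the Mock cells served as their control. Tumor cells were sorted as GFP positive without CD45 (on leukocytes) or CD31 (on endothelium), and their RNA was sequenced in 3 Mock and 3 HIF-1α-KD libraries, to ask which genes depend on HIF-1α in tumor cells inside a tumor. Both groups derive from 1 cell line. The age and sex of the mice, whether the transduced cells were a clone or a pool, and whether each library came from a separate tumor are not given in the sources used here, so p-values measure only the spread between these libraries, which may be technical.

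Between 19845852 and 30809139 reads per library fell on genes. Hif1a, the targeted gene, had normalized counts (reads divided by the authors' factor for each library) of 6914, 5424 and 4945 without the knockdown, whereas HIF-1α-KD libraries had 697.3, 3142 and 1928, without overlap of the groups (log2 fold change on the normalized count plus 1, where values below 0 mean lower in HIF-1α-KD cells, -1.82, standard error 0.46, limma adjusted p = 0.219). Epithelial genes were scarce for a colon tumor line, with a summed normalized count of 9 markers of 597 in Mock replicate 3, which stood apart, and between 69.9 and 139 in the other libraries, and the intestinal factor Cdx2 had at most 2.42. In contrast, Col1a1, Col3a1, Dcn and the other 9 fibroblast, pericyte and smooth muscle markers summed to between 106310 and 230261 in Mock and between 294004 and 430566 in HIF-1α-KD libraries. Of this sum 54.7% was Col3a1, and Dcn, with 15050 to 42580 over all libraries, had a log2 fold change of -0.38. HIF-1α-KD replicate 3 stood apart in leukocyte markers. Their sum over 12 genes, mostly of macrophages, was 16902 there against 3198 and 3493 in the other HIF-1α-KD libraries and 5323 to 5655 in Mock, although CD45-positive cells had been gated out. Endothelial markers (7 genes) summed to between 513 and 631 in Mock and from 326 to 496 in HIF-1α-KD libraries, mostly Cdh5, with Kdr at most 11.6 and Cldn5 at most 0.957. Among 3 mesothelial markers Msln made up almost the whole sum, 2975 to 4690 in Mock against 286 to 1717 in HIF-1α-KD libraries, and Upk3b had at most 2.46. In bulk libraries such as these, more cells of a type and more RNA per cell cannot be told apart.

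Across the 12014 genes tested, 0.00832% rose and 0.383% fell after HIF-1α knockdown at a limma adjusted p-value under 0.05. Of the 7 tested IGF genes, 0 were higher and 0 were lower at this threshold, and the edgeR and DESeq2 tests on the recovered reads also called 0 of them (over all genes edgeR called 0% higher and 0.391% lower, and DESeq2 0.799% and 1.56%). At an unadjusted p-value under 0.05, where 7.04% of all tested genes were higher and 5.69% lower, limma gave 0 higher IGF genes and 1 lower one, Igf2. The lower count was 0 without Mock replicate 1 or 2 and 2 (Igf2 and Igfbp3) without HIF-1α-KD replicate 3, and the higher count was 1 (Igfbp7) without HIF-1α-KD replicate 1. Libraries of the 2 groups did not overlap in 10.4% (higher) and 8.75% (lower) of all tested genes, whereas the groups overlapped for each of the 10 IGF genes. The median log2 fold change of the 7 tested genes was -0.19, with 2 values above 0 and 5 below, against a median of 0.02 over all tested genes.

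**Figure D1:**
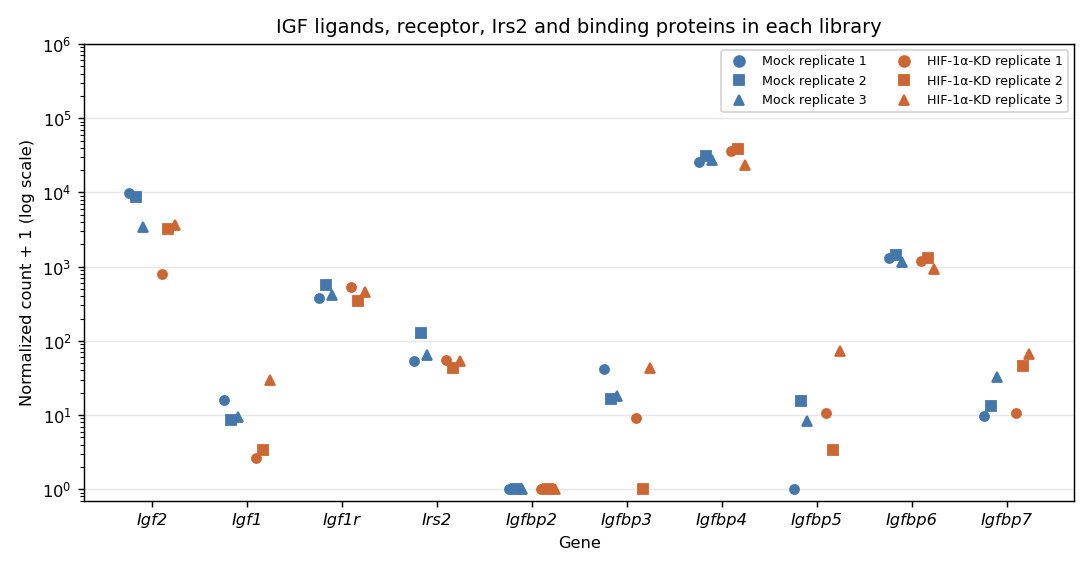
Normalized count plus 1 (log scale) of the 10 IGF genes in each of the 3 Mock and 3 HIF-1α-KD libraries, where each point is a library. Igfbp4 lies at the top between 23090 and 38500, Igf2 has the widest spread of the abundant genes, Igfbp2 is at 0 in all 6 libraries, and the groups overlap for each gene.

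Igf2 (ENSMUSG00000048583, GRCm38 chromosome 7, 142650766 to 142666816, minus strand) was the main ligand transcript. Mock replicates 1 to 3 had normalized counts of 9876, 8691 and 3373, whereas HIF-1α-KD replicates 1 to 3 had 798.7, 3180 and 3613. A pair of Mock libraries stood well above the rest, Mock replicate 3 lay within the range of the HIF-1α-KD libraries, and HIF-1α-KD replicate 1 was lowest. The mean was 7313 ± 3463 (SD, n = 3) for Mock, whereas it was 2531 ± 1515 (SD, n = 3) for HIF-1α-KD tumor cells. This gave a log2 fold change of -1.66 (standard error 0.59, 95% confidence interval -3.00 to -0.32, unadjusted p = 0.0209, limma adjusted p = 0.327). HIF-1α-KD replicate 1 also had the least Hif1a of the 6 libraries, but the other HIF-1α-KD libraries did not keep this order, since replicate 2 had more Hif1a and less Igf2 than replicate 3. Without HIF-1α-KD replicate 1 the log2 fold change of Igf2 was -0.96, and without HIF-1α-KD replicate 3, the library rich in leukocyte markers, it was -2.05. Without Mock replicate 3, the library with the most epithelial markers, it was -2.15, and the part of these markers in the level of Igf2 was not tested. Markers of other cell types were mixed. Of 11 tested fibroblast, pericyte and smooth muscle markers, 3 (Col1a1, Col3a1 and Rgs5) were higher in HIF-1α-KD cells without overlap (10.4% of all tested genes), while 4 (Dcn, Lum, Dpt and Actg2) had log2 fold changes from -0.83 to -0.16. Pdgfrb, Des, Acta2 and Pdgfra overlapped and had log2 fold changes of 0.59, 0.39, 0.33 and 0.03. The mesothelial marker Msln and the endothelial marker Cdh5 were lower without overlap (8.75% of all tested genes), whereas the other tested endothelial markers Pecam1, Plvap and Tek overlapped and had log2 fold changes of 0.26, 0.91 and 1.26. The part of these cell types in the level of Igf2 was not tested. Of the exon bases of Igf2, 3596 are shared with a gene on the same strand, Gm49394, and 98 with the antisense gene Igf2os, so reads there cannot be assigned with certainty.

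Igf1 (ENSMUSG00000020053, chromosome 10, 87858265 to 87937042), the ligand that circulates after birth, was close to the detection limit. Mock libraries had 12, 8 and 7 reads of it, HIF-1α-KD libraries had 2, 2 and 25, and it was therefore not tested. As normalized counts these were 14.8, 7.66 and 8.46 in Mock cells, compared with 1.61, 2.40 and 28.9 in HIF-1α-KD tumor cells. The highest value was that of HIF-1α-KD replicate 3, and the other HIF-1α-KD libraries were the lowest of the 6. The summed leukocyte markers had the same highest library and the same pair of lowest ones, as did Lyz2, the lysozyme of macrophages, at 8877 in HIF-1α-KD replicate 3 and between 1715 and 2615 in the others, and their part in the level of Igf1 was not tested. Igf2 exceeded Igf1 in reads in every library, also where Igf2 was lowest (993 against 2 in HIF-1α-KD replicate 1) and where Igf1 was highest (3128 against 25 in HIF-1α-KD replicate 3).

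**Figure D2:**
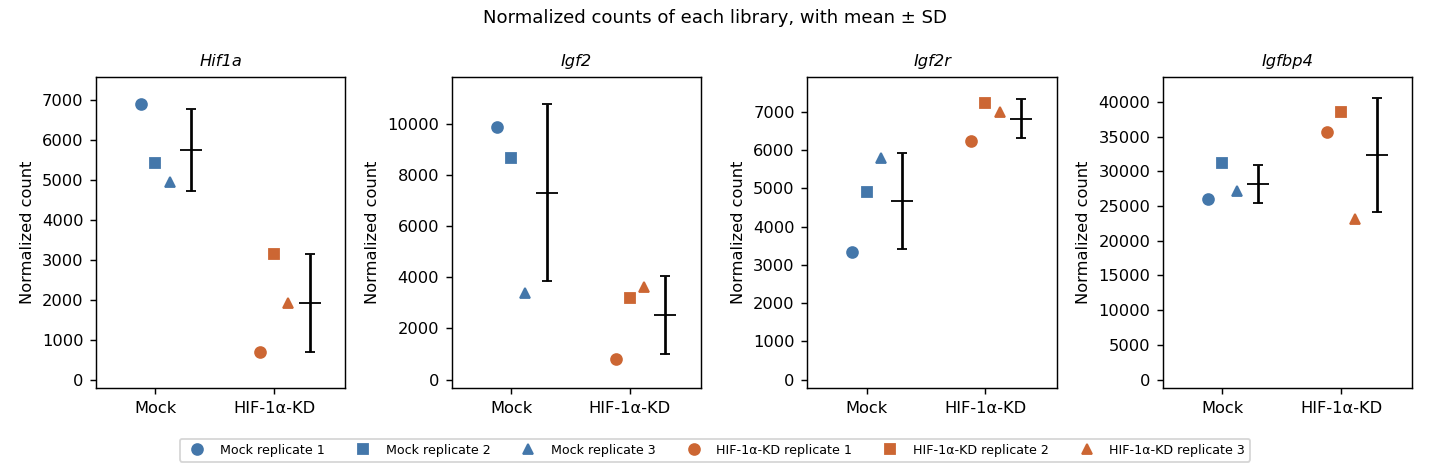
Normalized counts of Hif1a, Igf2, Igf2r and Igfbp4 in each library (points), with the group mean and SD (bars, n = 3). Hif1a was lower and Igf2r higher in each HIF-1α-KD library than in each Mock library, as were 8.75% (lower) and 10.4% (higher) of all tested genes. For Igf2, Mock replicate 3 (3373) fell among the HIF-1α-KD libraries, and for Igfbp4 HIF-1α-KD replicate 3 (23090) fell below all Mock libraries.

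The hypoxia-inducible factor binds a short core, ACGTG or GCGTG, so RefSeq promoter windows (GRCm38.p6, from 250 bases before to 50 bases after a transcript start, both strands searched) were read for it. The core was present in 43.8% of 32851 windows of the mouse genome, and in a window of 7 of the 10 IGF genes (8 of their 14 windows). Igfbp4, Igfbp5 and Igfbp6 had none in their windows, and 1 of the 4 windows of Igf2 held it. That Igf2 window and the window of Igf2r are shown because these were the ligand and the receptor with the lowest unadjusted p-values. They are written 5′ to 3′ along the gene with the core, on either strand, in capitals, and where both strands match, ACGTG is also part of the palindrome CACGTG bound by other factors.
Igf2, chr7:142658755-142659054, minus strand: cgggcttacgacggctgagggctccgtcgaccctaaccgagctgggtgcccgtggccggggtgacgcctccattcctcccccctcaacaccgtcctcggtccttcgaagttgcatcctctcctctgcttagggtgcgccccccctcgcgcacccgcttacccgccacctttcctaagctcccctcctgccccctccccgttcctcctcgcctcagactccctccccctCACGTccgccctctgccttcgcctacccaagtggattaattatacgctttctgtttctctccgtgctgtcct
Igf2r, chr17:12769657-12769956, minus strand: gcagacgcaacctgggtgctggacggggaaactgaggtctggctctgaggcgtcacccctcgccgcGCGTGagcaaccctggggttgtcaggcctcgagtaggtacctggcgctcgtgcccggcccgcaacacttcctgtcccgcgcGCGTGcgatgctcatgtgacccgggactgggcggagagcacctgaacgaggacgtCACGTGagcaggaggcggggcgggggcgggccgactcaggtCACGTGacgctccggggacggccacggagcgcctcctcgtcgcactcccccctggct
The Igf2 window holds 1 core and the Igf2r window holds 6, counting both strands, and 0.694% of all windows held 6 or more. These matches are letters only, and no binding was measured in these cells.

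Igf1r (ENSMUSG00000005533, chromosome 7, 67952827 to 68233668), the signaling receptor of both ligands, had normalized counts of 371.8, 568.4 and 417.9 in Mock tumor cells, as against 536.5, 342.9 and 457.4 after knockdown. The groups lay on top of each other, with means of 452.7 ± 103 and 445.6 ± 97.3 (SD, n = 3 each). The log2 fold change was -0.02 (standard error 0.24, 95% confidence interval -0.56 to 0.52, limma adjusted p = 0.976), and its sign turned with the scaling and with the libraries used, so no direction is given. Irs2 (ENSMUSG00000038894, chromosome 8, 10984681 to 11008458), an adaptor of the IGF and insulin receptors, had 52.9, 127.3 and 64.0 in Mock cells, whereas the HIF-1α-KD libraries gave 53.9, 42.0 and 53.1. Only Mock replicate 2 stood clearly apart, and without it the log2 fold change moved from -0.61 (standard error 0.38, limma adjusted p = 0.548) to -0.23. The confidence interval of the Irs2 difference reached from -1.47 to 0.26.

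Per length, Igf2r and Insr had a higher mean FPKM (reads scaled by gene length and library size) than Igf1r, at 73.2 and 6.28 against 4.05 in Mock cells. The insulin receptor-related receptor Insrr, named after its values were seen, had at most 22.95 normalized counts. Igf2r (ENSMUSG00000023830, chromosome 17, 12682406 to 12769664), the scavenger of IGF2 and of lysosomal enzymes, had 3325, 4897 and 5780 in Mock cells, compared with 6236, 7216 and 6993 in HIF-1α-KD tumor cells. Each HIF-1α-KD library was above each Mock library, which held for 10.4% of all tested genes. The log2 fold change of Igf2r was 0.58 (standard error 0.20, 95% confidence interval 0.12 to 1.04, unadjusted p = 0.0199, limma adjusted p = 0.321). Without Mock replicate 1, the lowest library, the log2 fold change was 0.35. Insr, the insulin receptor, ranged from 768.3 to 926.4 in Mock cells and from 859.7 to 1172 after knockdown (log2 fold change 0.16, limma adjusted p = 0.746, or 0.019 without HIF-1α-KD replicate 1, 0.075 without Mock replicate 3 and 0.24 without HIF-1α-KD replicate 2). Irs1, the partner adaptor of Irs2, ranged from 349.6 to 808.1 in Mock tumor cells and from 558.8 to 906.5 in HIF-1α-KD tumor cells (log2 fold change 0.47, limma adjusted p = 0.570, or 0.17 without Mock replicate 1 and 0.78 without Mock replicate 3), and the gene shares 2822 exon bases with Gm9747 on the opposite strand. The ligands of the insulin receptor, Ins1 and Ins2, had no reads in any library. Of the 11 receptors, adaptors, ligands and binding proteins listed outside the 10 genes, 4 were tested and 0 were called by limma (1 higher and 0 lower at an unadjusted p-value under 0.05, beside 7.04% and 5.69% of all tested genes), with a median log2 fold change of 0.31.

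**Figure D3:**
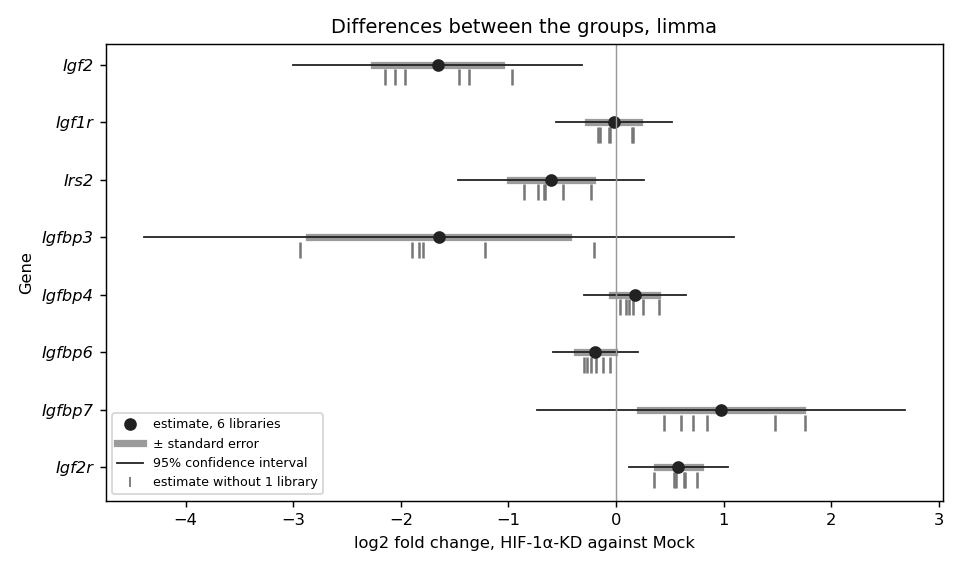
log2 fold change of HIF-1α-KD against Mock cells for the 7 tested IGF genes and Igf2r (points, limma on 6 libraries), with the standard error (thick bars), the 95% confidence interval (thin lines) and the estimates without 1 library each (ticks). The intervals of Igf2 (-3.00 to -0.32) and Igf2r (0.12 to 1.04) lie on one side of 0 before adjustment for multiple testing, and the interval of Igfbp3 is the widest.

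Igfbp4 (ENSMUSG00000017493, chromosome 11, 99041244 to 99054392), a binding protein that holds ligand away from the receptor, ranked 107 of all 22880 genes by mean FPKM. Its normalized counts were 25960, 31210 and 27230 in Mock tumor cells, as against 35700, 38500 and 23090 after knockdown. HIF-1α-KD replicates 1 and 2 were above all Mock libraries, and replicate 3 was below them. Group means were 28133 ± 2739 for Mock tumor cells, compared with 32430 ± 8209 (SD, n = 3 each) after knockdown. The log2 fold change was 0.17 (standard error 0.21, 95% confidence interval -0.30 to 0.65, limma adjusted p = 0.769). Without HIF-1α-KD replicate 3 it was 0.40 (limma adjusted p = 0.447), and without HIF-1α-KD replicate 2 it was 0.034. Igfbp4 alone accounted for 0.0973% to 0.162% of a library's reads.

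Igfbp6 (ENSMUSG00000023046, chromosome 15, 102144362 to 102149511), which prefers IGF2 over IGF1, was the other binding protein in quantity. It had 1309, 1443 and 1168 in Mock cells, whereas the HIF-1α-KD libraries gave 1199, 1314 and 936.8. The lowest library was HIF-1α-KD replicate 3 and the others were mixed, a log2 fold change of -0.19 (standard error 0.17, 95% confidence interval -0.59 to 0.20, limma adjusted p = 0.680). It was -0.053 without HIF-1α-KD replicate 3, -0.12 without Mock replicate 2 and -0.30 without HIF-1α-KD replicate 2. Per length, Igfbp4 made up between 94.8% and 96.5% of the summed FPKM of Igfbp2 to Igfbp7 in each library, and Igfbp6 between 3.45% and 5.08%. With the union of GENCODE exons as the length, an alternative chosen after seeing the data, these shares were 83.1% to 88.1% for Igfbp4 and 11.8% to 16.6% for Igfbp6. The summed FPKM was 905, 1157 and 946 in Mock cells, compared with 1265, 1422 and 864 in HIF-1α-KD tumor cells. The groups overlapped, with means of 1003 ± 135 and 1184 ± 288 (SD, n = 3 each). The exact permutation test (two-sided) gave p = 0.5 and cannot go below 0.1 for 3 against 3, so it cannot reach 0.05, and the sum mostly repeats Igfbp4.

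The remaining binding proteins were scarce. Igfbp3 (ENSMUSG00000020427, chromosome 11, 7206086 to 7213923), the main carrier in serum, had 40.6, 15.3 and 16.9 in Mock tumor cells, as against 8.04, 0 and 42.7 after knockdown. The highest and the lowest library were both HIF-1α-KD, so the log2 fold change of -1.65 (standard error 1.20, 95% confidence interval -4.39 to 1.09, limma adjusted p = 0.605) rested on the library without reads, and it was -0.21 without HIF-1α-KD replicate 2 but -2.93 without HIF-1α-KD replicate 3. The log2 scale with 1 added gives such low counts much weight, and edgeR on the reads gave -0.54. Igfbp3 was highest in HIF-1α-KD replicate 3, as were the summed leukocyte markers, and their part in its level was not tested. Igfbp7 (ENSMUSG00000036256, chromosome 5, 77349240 to 77408041), a matrix and vessel protein with low affinity for IGFs, had 8.62, 12.4 and 31.4 in Mock cells, whereas the HIF-1α-KD libraries gave 9.65, 44.4 and 64.7. Both groups held libraries near 10 reads, and the log2 fold change was 0.97 (standard error 0.75, 95% confidence interval -0.74 to 2.69, limma adjusted p = 0.625). It was 0.45 without HIF-1α-KD replicate 3, 0.60 without Mock replicate 1, 1.48 without Mock replicate 3 and 1.76 without HIF-1α-KD replicate 1. Igfbp7 shares 85 exon bases with Polr2b on the opposite strand.

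Igfbp5 (ENSMUSG00000026185, chromosome 1, 72857932 to 72874884), a binding protein that attaches to matrix, was not tested. It had 0, 15 and 6 reads in Mock cells, compared with 12, 2 and 63 reads in HIF-1α-KD tumor cells. Like Igf1 it was highest in HIF-1α-KD replicate 3, and without that library it had at most 14.4 normalized counts anywhere. Of the 12 leukocyte markers, 10 were highest in HIF-1α-KD replicate 3 as well, and their part in the level of Igfbp5 was not tested. Igfbp2 (ENSMUSG00000039323, chromosome 1, 72824503 to 72852474), a binding protein of liver and many tumors, had 0 reads in all 6 libraries, which allows a normalized count of up to 2.41 to 3.69 per library (3 reads, counting error only). Igfbp1, which lies next to Igfbp3 and is a known hypoxia target in liver, had no reads either.

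**Figure D4:**
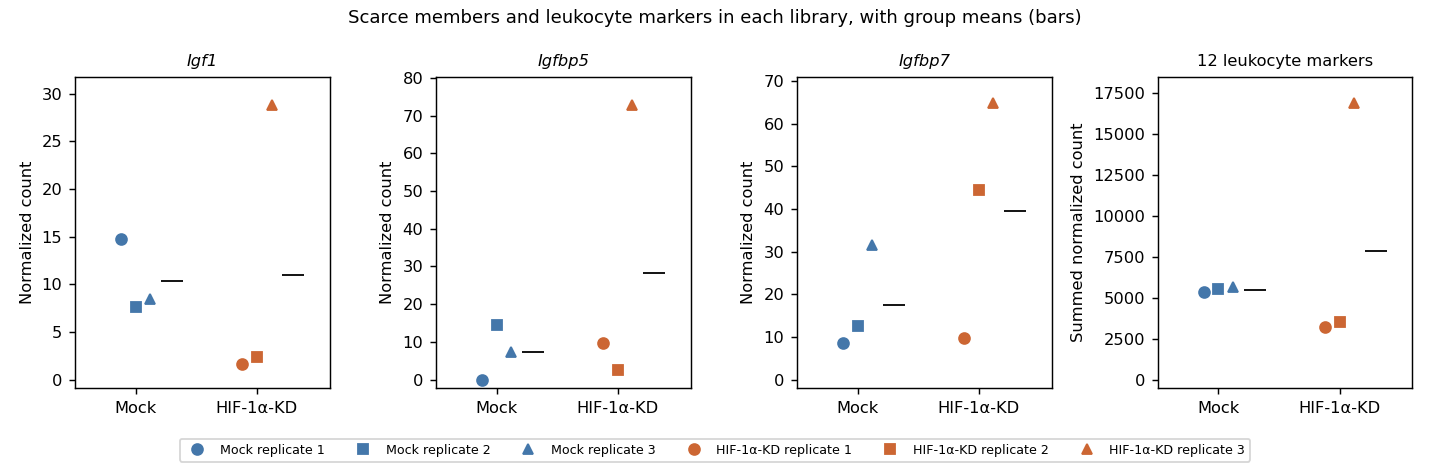
Normalized counts of Igf1, Igfbp5 and Igfbp7 and the summed normalized count of 12 leukocyte markers in each library (points), with group means (bars). HIF-1α-KD replicate 3 is the highest library in all 4 panels, with a marker sum of 16902 against at most 5655 elsewhere.

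In order of FPKM with the deposited gene width, Mock cells had Igfbp4 (mean 954), Igf2 (147), Igfbp6 (47.1), Igf1r (4.05), Irs2 (0.819), Igfbp7 (0.594), Igfbp3 (0.467), Igf1 (0.208), Igfbp5 (0.0572) and Igfbp2 (0). Ranges of neighbours overlapped for Irs2, Igfbp7 and Igfbp3, while the steps from Igfbp4 down to Irs2 and from Igfbp3 down to Igf1 and Igfbp5 did not overlap. HIF-1α-KD cells had Igfbp4 (mean FPKM 1139), Igf2 (53.0), Igfbp6 (43.0) and Igf1r (4.11) at the top as well, but there the ranges of Igf2 (16.1 to 76.2) and Igfbp6 (35.6 to 49.8) overlapped. Below Igf1r, whose lowest HIF-1α-KD library was at 3.21, each neighbour in the order Igfbp7, Irs2, Igfbp3, Igf1 and Igfbp5 overlapped the next. Several neighbours changed places with the length used. With the deposited width the mean FPKM of Igf2 was above that of Igfbp6 in both groups, whereas with the union of GENCODE exons, which is longer for Igf2 (5723 against 2000 bases), Igf2 was at 51.2 against 47.0 for Igfbp6 in Mock and at 18.5 against 42.9 in HIF-1α-KD cells. With that length the Mock ranges of Igf2 (23.1 to 67.3) and Igfbp6 (41.1 to 54.1) overlapped, and those of the HIF-1α-KD libraries did not. In Mock cells Igfbp7 (mean 0.575) then lay above Irs2 (0.520) and overlapped Igf1r, and Igfbp5 (0.0489) lay above Igf1 (0.0413) and overlapped it. After knockdown Igfbp7 (1.37) then lay above Igf1r (1.10), and Igfbp5 (0.197) above Igf1 (0.0465), with overlapping ranges.

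The pathway around these genes was described with 5 lists of 71 other genes, of which 70 were in the table and 51 were tested. At a limma adjusted p-value under 0.05, 0 of the 51 were higher and 1 was lower, beside the background of 0.00832% and 0.383%. The proteases that release ligand from binding proteins, and their inhibitors, gave 0 calls by limma among 5 tested genes, also 0 with unadjusted p-values below 0.05, with a median log2 fold change of -0.18. They included the abundant Htra1, a serine protease that cuts IGF binding proteins, from 26420 to 40120 in Mock cells and from 24090 to 29280 after knockdown (log2 fold change -0.27, limma adjusted p = 0.581), whereas Pappa, the protease of the IGFBP4 protein, had at most 4.62. Both were chosen after their values were seen.

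Of the signaling genes downstream of the receptor, 26 of 27 were tested and 0 were called by limma (1 higher and 2 lower at an unadjusted p-value under 0.05, where 7.04% and 5.69% of all tested genes passed), with 19 values above 0, 7 below and a median of 0.15. The kinase subunit Pik3cb had 1898, 1847 and 1149 in Mock tumor cells, as against 772.9, 983.2 and 865.2 after knockdown. All HIF-1α-KD libraries were lower, but the difference did not pass (log2 fold change -0.87, standard error 0.22, limma adjusted p = 0.219). The repressor of cap-dependent translation Eif4ebp1 had 5444, 5423 and 6348 in Mock cells, whereas the HIF-1α-KD libraries gave 4588, 3567 and 4134, again without overlap (log2 fold change -0.49, standard error 0.15, limma adjusted p = 0.275). Of the 26 tested genes, 3 were lower without overlap, Grb2 among them, beside 8.75% of all tested genes. A further 2, Sos1 and Rptor, were higher without overlap, beside 10.4% of all tested genes. The phosphatase Ptpn11 had a log2 fold change of 0.41 (limma adjusted p = 0.381).

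FoxO factors are held inactive by AKT, and their target genes are induced when IGF or insulin signaling is low. Of this list 11 of 13 were tested, with 0 higher and 1 lower at the adjusted threshold of limma (0 and 4 at the unadjusted one, where 7.04% and 5.69% of all tested genes passed), 4 values above 0, 7 below and a median of -0.29. Ccng2, a cyclin that restrains the cell cycle, had 935.6, 570.4 and 492.8 in Mock cells, compared with 197.9, 179.9 and 184.8 in HIF-1α-KD tumor cells. It fell by 1.77 on the log2 scale (standard error 0.25, limma adjusted p = 0.0294). The log2 fold change stayed between -1.96 and -1.50 on leaving out each library, but the call was lost without any 1 of the Mock libraries or of HIF-1α-KD replicates 2 and 3 (limma adjusted p between 0.0653 and 0.118). It was also lost in limma without a mean-variance trend (adjusted p = 0.0987) and with the replicate number as a block. Cdkn1b, an inhibitor of cyclin-dependent kinases, had 1717, 1217 and 1106 in Mock tumor cells, as against 568.6, 619.9 and 697.7 after knockdown (log2 fold change -1.08, standard error 0.20, limma adjusted p = 0.0934). The groups did not overlap for Txnip, which restrains glucose uptake (log2 fold change -0.91, limma adjusted p = 0.287), and for the PI3 kinase inhibitor Pik3ip1 (log2 fold change -0.77, limma adjusted p = 0.290), neither of which passed. Of the 11 tested genes, 4 were lower and 0 higher without overlap, beside 8.75% and 10.4% of all tested genes. IGF or insulin signaling itself was not tested. DESeq2 on the recovered reads also called Cdkn1b, Txnip and Pik3cb lower (adjusted p = 0.00018, 0.0368 and 0.00869), beside 1.56% of all genes called lower by that tool. Of the list on the Igf2 locus, Igf2 mRNA-binding proteins and imprinted growth genes, 5 of 10 were tested, 0 were called by limma (0 at an unadjusted p-value under 0.05) and the median was -0.01, and H19 was not analysed here.

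**Figure D5:**
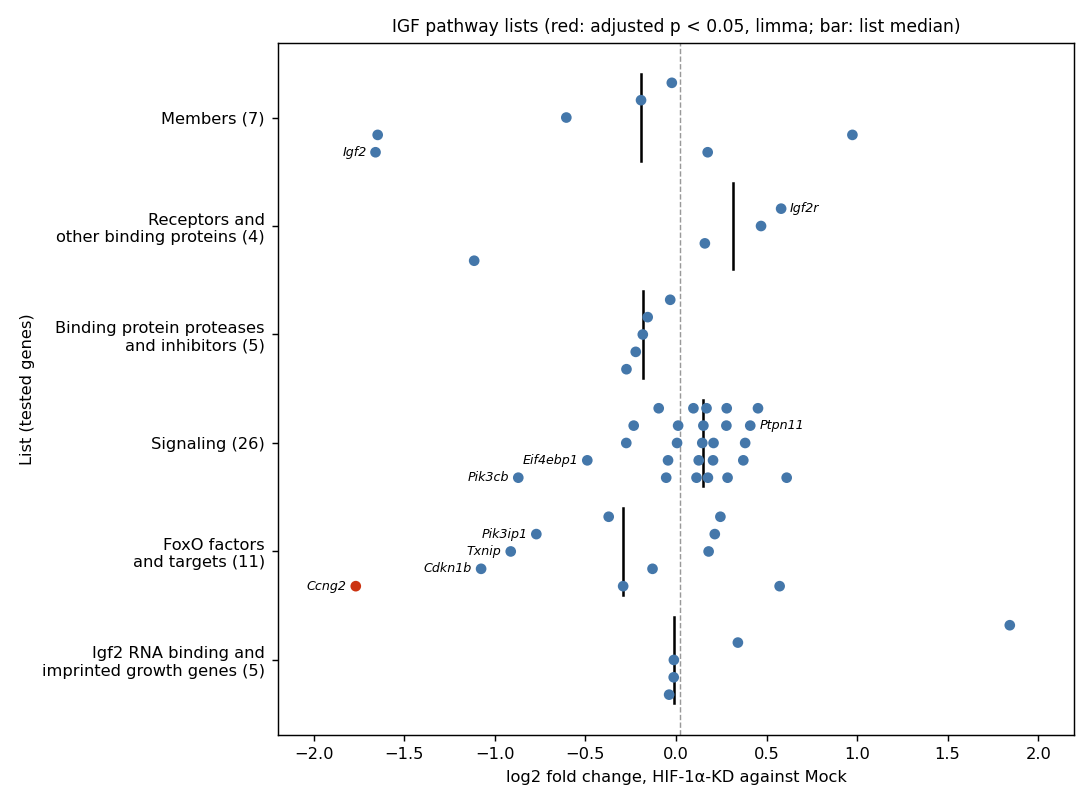
log2 fold changes of the tested genes of the IGF set and of the 5 pathway lists (points), with the median of each list (bars) and of all tested genes (dashed line, 0.02). Ccng2 (-1.77) is the gene past an adjusted p-value of 0.05 (red), and the other labelled genes are Igf2 and those with the lowest unadjusted p-values of their lists.

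Genes with a like pattern over the 6 libraries were sought among tested genes with a mean normalized count of at least 100 (10045 for Igf2), by Pearson's r of log2 values. For Igf2 the closest were Btg2 (r = 0.998), an antiproliferative early response gene, Cyp2d22 (r = 0.993), Zfp26 (r = 0.988), Mpdu1 (r = 0.985) and Inpp5k (r = 0.983). Btg2 had 379.2, 347.4 and 164.3 in Mock cells, whereas the HIF-1α-KD libraries gave 43.4, 131.9 and 165.2, so its Mock replicate 3 and HIF-1α-KD replicate 3 were also alike. For Igf1 they were Akap8l (r = 0.993), the macrophage gene C3ar1 (r = 0.984), Zfp51 (r = 0.983), Mrpl9 (r = 0.981) and Adgre1 (r = 0.981), which encodes the macrophage antigen F4/80. Adgre1 had 836.3 in HIF-1α-KD replicate 3 and between 123.1 and 370.5 elsewhere. With 6 points and this many candidates, high values of r are a description of these libraries only.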

How the data were processed

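Per the labels' processing notes, reads were aligned with STAR to GRCm38. The study's methods name STAR, featureCounts and DESeq2, with GRCh38 as the reference, although the table carries mouse identifiers. The authors deposited 1 table with normalized counts, a signal in which each gene's read count was divided by 1 factor per library, FPKM values computed by the authors from the gene's width, the GC content as a fraction given by the authors, and a deposited log2 ratio with a deposited p-value and false discovery rate, which hold the authors' own comparison and were not used. Whether counting used the strand is not given in the sources used here. Reads were recovered by removing the factor, and 100% of values up to 300 reads were whole within 0.1 reads.

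Genes were filtered with filterByExpr of edgeR 4.0.16 (minimum count of 10, by group), which left 12014. Normalized counts were tested as log2(count + 1) between the 3 Mock and 3 HIF-1α-KD libraries with limma 3.58.1 with a mean-variance trend, two-sided, with Benjamini-Hochberg adjustment over all 12014 genes. Alternatives were edgeR's quasi-likelihood test and DESeq2 1.42.0 on recovered reads, other scalings, filters and pseudocounts, a replicate block and leaving out each library. The fits were tested on simulated data. Genes named are all IGF genes, Hif1a, listed pathway genes called or with the lowest unadjusted p-values under 0.05 (up to 3 per list), Igfbp1, Igf2r, Insr, Irs1, H19, the 5 most alike to Igf1 and Igf2, and cell type markers that move with an IGF gene. Other markers, Insrr, Ins1 and Ins2 come from the lists but were named after their values were seen. The genes and lists were chosen with earlier results of these data known. Positions are from GENCODE M21, and promoters from RefSeq. All 10 IGF genes matched both.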

Additional observations from a re-analysis of the deposited data

How the results depend on the processing

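Counting error and the spread of 3 libraries per group limit these results. Igf1, Igfbp2, Igfbp3, Igfbp5 and Igfbp7 had few reads, and which differences this depth could show was not tested. The number of IGF genes past an adjusted p-value of 0.05 was 0 in each direction under all 15 alternatives. Igf1r reversed to 0.033 when scaled by library size alone, and ranged from -0.17 to 0.15 on leaving out each library (above 0 without Mock replicate 2 or HIF-1α-KD replicate 2). The other 6 tested IGF genes and Igf2r kept their direction under all alternatives, Igf2 between -2.15 and -0.96. The 1 pathway gene called lower became 4 with DESeq2 and 0 with limma without a trend, and 0 to 1 on leaving out each library. Over all genes, limma called 1 higher and 46 lower, edgeR 0 and 47, DESeq2 96 and 187, limma without a trend 0 and 1, and leaving out each library 0 to 6 higher and 0 to 32 lower, with none in either direction without Mock replicate 3 or HIF-1α-KD replicate 2. The cause was not tested. The summed FPKM of the binding proteins had a log2 ratio of 0.24, or 0.09 to 0.42 on leaving out each library and 0.20 with the exon union as the length, which was chosen after seeing the data.

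With the replicate number as a block, 0 pathway genes and 0 genes in all were called, Igf2 had a limma adjusted p of 0.401, and the summed binding proteins had a log2 ratio of 0.22 (exact permutation within numbers, p = 0.5). Same-numbered libraries did not deviate together (r of -0.14, -0.12 and 0.02 over genes), so the numbers were not taken as pairs.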

Other observations

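The genes around Igf2 on chromosome 7 differed in level and pattern. Of 26 other genes of the table within 500000 bases of Igf2, 12 had no reads in any library and 9 were tested, of which 0 passed an adjusted p-value of 0.05 and 1 had an unadjusted p-value under 0.05 (limma), beside 7.04% higher and 5.69% lower of all tested genes. This gene was Tnnt3, a muscle troponin, which had normalized counts of 30.8, 28.7 and 9.66 without and of 3.22, 13.2 and 5.78 with the knockdown (log2 fold change -1.54, limma adjusted p = 0.393). Like Igf2 it was highest in Mock replicates 1 and 2 and lowest in HIF-1α-KD replicate 1. The abundant neighbours differed from this pattern, with Ctsd, a lysosomal protease, between 18040 and 23670 in all libraries and Cd81, a tetraspanin, highest in HIF-1α-KD replicate 1 (6494 against 2436 to 3496 in the others). Dlk1, another imprinted growth gene that is often expressed with Igf2, lies elsewhere, on chromosome 12. It had 70.2, 27.8 and 10.9 in Mock cells, compared with 20.9, 221.8 and 228.7 after knockdown (log2 fold change 1.84, limma adjusted p = 0.467). These genes were chosen after their values were seen.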
